A study of Mus musculus with 29 samples.

Results

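This section describes the effect of a C26 tumour on the heart transcriptome of mice that also carried a liver-directed REV-ERBα vector. It compares 10 hearts of tumour-bearing mice (C26_REV-ERBa, here tumour-bearing hearts) with 5 hearts of tumour-free mice (PBS_REV-ERBa, here controls), 15 of the 29 libraries of the series, over all 12928 genes with enough counts to test. The 15 libraries were taken by their group labels, with no measured value used. All 29 mice were BALB/c with a wildtype genotype, and every one had received an adeno-associated virus by vein. In the 15 mice described here the virus carried REV-ERBα behind Tbg, a promoter active in hepatocytes, so that the vector was aimed at the liver and the heart is a tissue in which it is not meant to be expressed. C26 cells, a mouse colon carcinoma line used to provoke cachexia, were placed under the skin 10 days after the vector, and the controls were injected with PBS instead. The remaining groups, 10 C26_GFP and 4 PBS_GFP libraries, carried GFP behind the same promoter. Each library has an animal identifier of its own. The labels name neither sex nor age, nor the tumour load, the days with a tumour or the hour of collection.

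Cachexia is a wasting of muscle and fat that accompanies many tumours and is driven in part by circulating cytokines, of which the interleukin-6 family acts through the receptor chain gp130 and the transcription factor STAT3 to switch on acute phase genes. The heart takes part: its muscle can lose mass through ubiquitin ligases and autophagy, and it burns mainly fatty acids. REV-ERBα, encoded by Nr1d1, is a nuclear receptor of the circadian clock that represses transcription. In the heart Nr1d1 itself was 199 ± 33.8 CPM (a count scaled to the size and composition of its library; mean ± SD, n = 5) in controls and 166 ± 42.9 (n = 10) in tumour-bearing hearts, a log2 change of -0.27 ± 0.19 (standard error) that did not pass (edgeR adjusted p = 0.42). Because the vector is aimed at hepatocytes, this level does not check the labels of the vector. The gene Thra overlaps Nr1d1 on the opposite strand. The strand setting of the counting is not known, so Thra reads may be included in the Nr1d1 level.

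In tumour-bearing hearts 523 genes (4.05% of those tested) were higher and 412 (3.19%) were lower, 935 in all (7.23%), at an adjusted p under 0.05 in edgeR's quasi-likelihood test. Of these, 101 rose and 45 fell by more than 2-fold, and the median size of a called change was 0.47 on the log2 scale. In 142 genes (1.1%) every tumour-bearing heart lay above every control, and in 100 genes (0.774%) every one lay below. Among the 12 largest rises at a mean of 5 CPM or more were the protease inhibitors Serpina3n and Serpina3i, the complement gene C4b, the receptor chain Csf2rb2 and the metallothionein Mt2, beside genes of no list such as Apod and Srpx. Those that fell furthest include the transcription factor Mycn, the peptide Apln with its receptor Aplnr, and the cytoskeletal gene Nes. The median log2 change over all tested genes was 0.0026. The count was 476 without control replicate 5 and 521 without control replicate 2. Rises numbered 264, 331 and 295 without control replicates 5, 4 and 2, and falls 212, 226 and 272 without control replicates 5 and 2 and tumour replicate 2.

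The libraries held 3207497 to 5355029 counts in controls and 3376113 to 7619837 in tumour-bearing hearts. Ventricular cardiomyocyte markers summed to 49030 to 58580 CPM in controls and 39240 to 54400 in tumour-bearing hearts, as the tissue label calls for. Liver transcripts moved with the group. Summed over the 11 hepatocyte markers in the table, controls held 2.14 to 19.9 CPM (median 7.24) and tumour-bearing hearts 3.62 to 187 (median 43.5), with Alb, the gene of serum albumin, at 0.163 ± 0.166 against 7.22 ± 11.7 CPM, and none of the 10 tested hepatocyte markers passed. No hepatocyte marker was at 0 in all 15 libraries. The hepatocyte score (mean log2 CPM of the 10 tested markers) was above 1 in tumour replicates 2, 3, 4, 5, 9 and 10 and in no control. Without the 9 libraries of the series above that score, 152 genes passed (100 higher, 52 lower), of which 145 were among the 935. That fit left out 6 of the 10 tumour-bearing hearts and no control. With so many hearts removed, a call lost there does not show that the change went away. With the score as a covariate 406 passed (243 higher, 163 lower). The part of liver transcripts in the other changes was not tested. Atrial markers varied too, with scores above 5 in control replicate 3 and tumour replicates 4, 9 and 10, and adipocyte markers reached 573 CPM in tumour replicate 9 against at most 54.3 in controls.

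**Figure D1:**
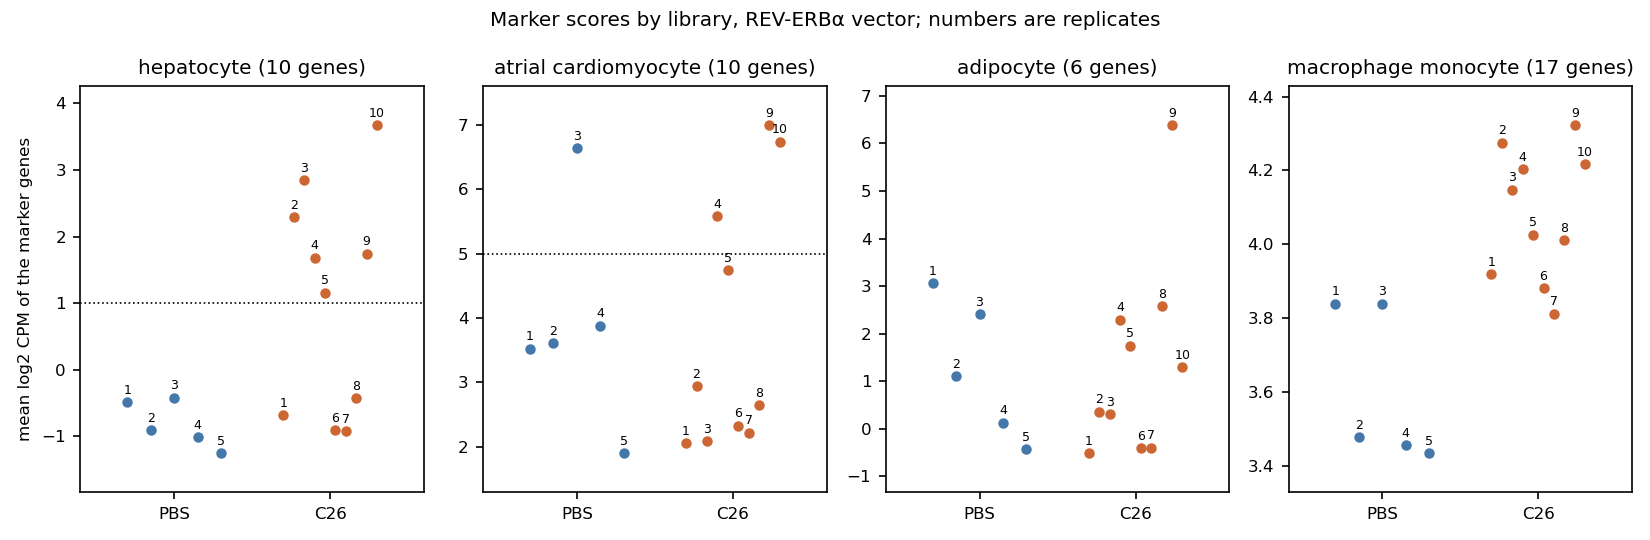
Mean log2 CPM (vertical axis) of 4 marker lists in the 5 controls (blue) and 10 tumour-bearing hearts (orange), with replicate numbers beside the points. The dotted lines mark the scores of 1 (hepatocyte) and 5 (atrial). The 6 tumour-bearing hearts above the hepatocyte line have no counterpart among the controls, whereas macrophage scores rise over most of the tumour-bearing group.

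The acute phase and interleukin-6 family list had the highest median change of the pathway lists. Of its 27 tested members 13 rose and none fell, with a median log2 change of 1.13 against 0.0026 over all genes, where 4.05% rose. Without the 9 liver-score libraries the median over the 21 members then tested was 0.55, with 8 higher. The gene Fgb belongs both to the acute phase list and to the hepatocyte markers, so that score is not independent of the list. This list and the others below were chosen with earlier results of these data known. Their counts and medians describe the data and test nothing. Serpina3n, a secreted inhibitor of serine proteases and an acute phase protein (chr12:104406708-104414329, mm10), rose most of all called genes with a mean of at least 5 CPM. It stood at 19.03, 9.85, 13.7, 7.28 and 7.78 CPM in control replicates 1 to 5 and from 39.7 to 252 CPM with a median of 150.3 in tumour-bearing hearts. The groups did not overlap, and tumour-bearing hearts spread widely among themselves. The log2 change was 3.73 ± 0.48 (edgeR adjusted p = 1.57e-05). Its neighbour in the same family, Serpina3i, rose by 2.21 ± 0.38 (0.000431). Serpina3 genes are near-identical copies, so the split of reads among them is uncertain. Serpina3m had no count in any control and averaged 1.09 CPM in tumour-bearing hearts, at least 7.79-fold higher than 3 counts over the 5 controls, but it missed the threshold in 10 of 15 single omissions of a library.

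Some cytokine receptors of the list, not all of the interleukin-6 family, and the transcription factor Stat3 rose with little scatter. Osmr, the oncostatin M receptor that pairs with gp130, read 29.8, 36.2, 35.7, 27.6 and 35.2 CPM in the 5 controls. It ranged from 58.2 to 107 CPM with a median of 89.7 in tumour-bearing hearts, all above the controls, for a log2 change of 1.40 ± 0.14 (edgeR adjusted p = 5.81e-07), the smallest adjusted p of the comparison among the genes named here. Stat3 itself read 218, 249.8, 225, 224 and 248 CPM in controls and from 306 to 384 CPM with a median of 337 with a tumour. Again the groups did not overlap, although the log2 change was only 0.54 ± 0.06 (2.17e-06). Il1r1, the interleukin-1 receptor, went from 36.4 ± 3.95 to 66.1 ± 12.5 CPM (0.86 ± 0.12, adjusted p = 3.22e-05) with no overlap. Il6st, which encodes gp130, rose by 0.19 and Il4ra, the interleukin-4 receptor chain, by 0.89. Among the targets, Socs3, the feedback inhibitor of the STAT3 pathway, rose from 15.5 ± 3.83 to 39.6 ± 11.4 CPM (1.34 ± 0.22, adjusted p = 0.000337). Lrg1, a secreted glycoprotein, rose by 1.13, the transcription factor Cebpd by 1.20 and the NF-κB cofactor Bcl3 by 1.05. Serpina3n, Osmr, Stat3, Il1r1, Il4ra, Socs3, Cebpd and Bcl3 passed under each of the 15 single omissions and were the 8 list members that passed without the 9 liver-score libraries. Lrg1 and Il6st, which also held in the single omissions, did not pass there (log2 changes 0.93 and 0.15, adjusted p = 0.0852 and 0.211). The serum amyloid genes Saa1 and Saa2, made chiefly by liver, had no count in any control and missed the threshold (adjusted p = 0.0761 and 0.115), as did Hp, haptoglobin (0.052). In tumour-bearing hearts Saa1 ran from 0 to 17.9 CPM.

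A STAT site, searched as TTCNNNGAA (a palindrome, so both strands are read), was present in the promoter window of 2 of the 11 risen acute phase genes with a RefSeq window, Socs3 and Itih4, an inhibitor chain made chiefly by liver (18.2%), against 8.48% of the 9854 tested genes with one and 8.3% of all 32851 windows. The window runs from 250 bases before the start site to 50 after it (RefSeq, GRCm38.p6). That of Socs3 (chr11:117969317-117969616, minus strand) is shown because Socs3 is the classical STAT3 target of the list, with the match, which begins 154 bases before the start site, in capitals.
Socs3: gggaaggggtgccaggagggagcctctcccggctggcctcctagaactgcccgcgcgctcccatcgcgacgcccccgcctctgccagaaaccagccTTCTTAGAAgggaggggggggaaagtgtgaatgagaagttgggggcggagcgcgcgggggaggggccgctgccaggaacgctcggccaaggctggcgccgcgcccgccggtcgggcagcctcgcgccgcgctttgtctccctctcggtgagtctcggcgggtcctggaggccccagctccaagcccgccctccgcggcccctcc
A match is a string of letters and not evidence of binding, and the other windows held none. Itih4 missed the threshold without control replicate 1, 2, 4 or 5 (adjusted p = 0.0728, 0.0688, 0.0804 and 0.0801).

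**Figure D2:**
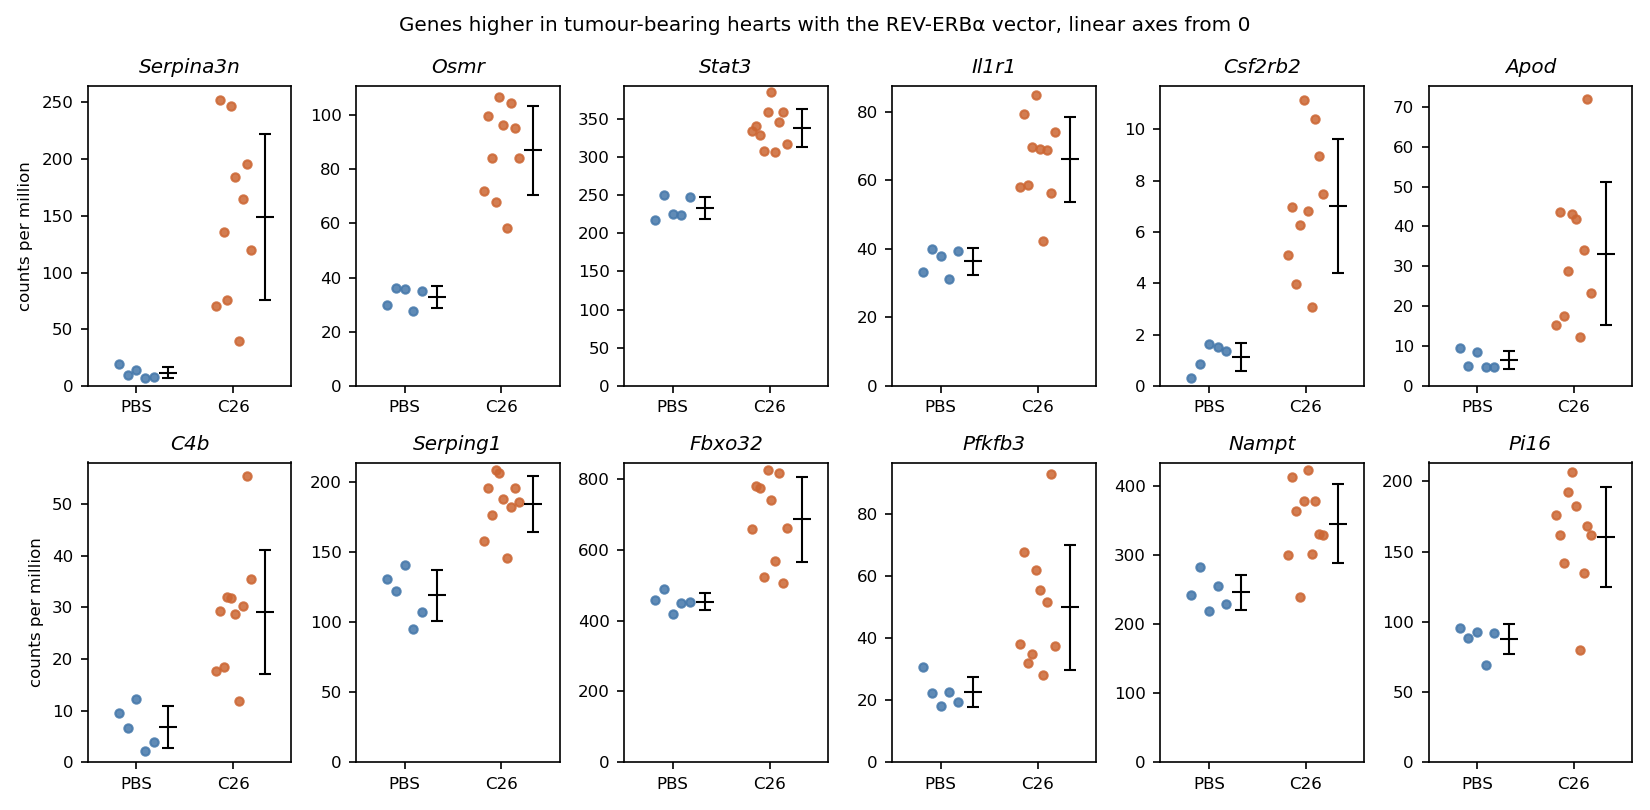
CPM (vertical axes, linear from 0) of 12 genes that rose, in 5 controls (blue) and 10 tumour-bearing hearts (orange), with mean and SD beside the points. For Serpina3n, Osmr, Stat3, Il1r1, Csf2rb2, Apod, Serping1 and Fbxo32 the groups do not overlap, and for C4b, Pfkfb3, Nampt and Pi16 they do.

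Of 18 tested complement genes 10 rose, where 4.05% of all tested genes did. Complement is a cascade of plasma proteins that marks cells for removal, and its early components can be made locally by macrophages and fibroblasts. None of the 18 fell, with a median log2 change of 0.57. C4b, the fourth component, stood at 9.52, 6.66, 12.3, 2.299 and 3.89 CPM in controls and from 11.8 to 55.4 CPM with a median of 29.8 with a tumour. Control replicate 3 reached the lowest tumour-bearing hearts, so the groups overlap slightly. The change was 2.12 ± 0.35 (edgeR adjusted p = 0.000379). C1s1 and C1ra, the proteases of the first component, rose by 0.86 ± 0.14 (0.000408) and 0.78 ± 0.14 (0.000594). Serping1, the inhibitor of those proteases, rose from 119 ± 18.2 to 184 ± 20.02 CPM (0.63 ± 0.09, adjusted p = 6.73e-05), without overlap. The central component C3 rose by 1.38 ± 0.28 (0.00292), C7 of the membrane attack complex by 0.95, and the anaphylatoxin receptor C5ar1 by 0.71. All of these held in each single omission. C4b, C1s1 and Serping1 were the 3 members that passed without the 9 liver-score libraries, where C1ra and C3 did not (log2 changes 0.45 and 0.89, adjusted p = 0.0938 and 0.114) and the median over the list was 0.30.

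Several macrophage genes were higher. Of 17 tested macrophage and monocyte markers 7 rose and none fell (median log2 change 0.56), where 4.05% of all tested genes rose. C1qa, C1qb and C1qc are counted among these rises and among those of the complement list. The markers summed to 384 to 553 CPM in controls and 522 to 723 in tumour-bearing hearts. Cd163, a haemoglobin scavenger receptor of resident macrophages, went from 24.8 ± 8.04 to 46.6 ± 11.4 CPM (0.91 ± 0.18, edgeR adjusted p = 0.0016). Mrc1, the mannose receptor, rose by 0.61 (0.00606), F13a1, a transglutaminase chain, by 0.63 (0.00738), and the complement recognition chain C1qb by 0.45 (0.00481). In bulk tissue, more cells of a type and more RNA per cell cannot be told apart. Csf2rb2 and Csf2rb, near-identical receptor chains for interleukin-3 family cytokines, rose by 2.51 ± 0.36 (5e-05) and 1.81 ± 0.32 (0.000712), with reads that may be split between them. Csf2rb2 was at 0.307, 0.869, 1.62, 1.53 and 1.36 CPM in controls and from 3.07 to 11.1 CPM with a median of 6.89 with a tumour, without overlap. Without the 9 liver-score libraries Csf2rb2 kept its call (adjusted p = 0.00586) and Csf2rb did not (log2 change 1.35, adjusted p = 0.0807). Cd163, Mrc1, F13a1 and C1qb held in each single omission. The macrophage count was 4 without control replicate 4 or 5, and 0 without the 9 liver-score libraries, where the median log2 change was 0.36.

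Other inflammatory lists moved less. Of 35 interferon and antigen presentation genes 5 rose (Stat2, Gbp4, Gbp6, Iigp1 and Tap1) and none fell, where 4.05% of all tested genes rose and 3.19% fell. Gbp4, an interferon-induced guanylate-binding protein with close paralogs, went from 40.2 ± 7.63 to 82.9 ± 15.2 CPM, without overlap, at an adjusted p of 0.0333. These 5 calls were fragile: 1 was left without control replicate 1 or 2, none without control replicate 3, and 2 without control replicate 4 or 5 or tumour replicate 2. Of 20 NF-κB and chemokine genes 3 rose (Nfkbiz, Selp and Ccl11), with a median of 0.06. That count was 1 without control replicate 2, 0 without control replicate 4 or 5, and 5 without tumour replicate 7. Without the liver-score libraries it was 0, with a median of 0.10. The interferon count was 1 there (Stat2, adjusted p = 0.0184), with a median of 0.30 against 0.26 in the main fit. S100a9, a neutrophil protein, was at most 0.2897 CPM in controls and at a median of 1.07 with a tumour (2.59 ± 0.69, edgeR adjusted p = 0.0216). Without control replicate 1, 4 or 5 it missed the threshold (0.0517, 0.0523 and 0.0601).

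Metallothioneins, small proteins that bind zinc and copper and are induced by glucocorticoids, cytokines and metal, were among the largest rises. Mt2 read 2.46, 2.32, 2.32, 2.68 and 2.33 CPM in controls, a narrow band, and from 4.32 to 29.8 CPM with a median of 17.7 in tumour-bearing hearts, all above it. The change was 2.81 ± 0.55 (edgeR adjusted p = 0.00183). Mt1, its neighbour on chromosome 8, rose from 17.9 ± 1.87 to 51.7 ± 19.6 CPM (1.53 ± 0.32, 0.00307), with overlap at the lowest tumour-bearing heart. Mt2 kept its call without the 9 liver-score libraries (adjusted p = 0.0256) and Mt1 did not (0.0616, log2 change 1.27). Of 24 glucocorticoid targets 5 rose and none fell, with a median of 0.50, where 4.05% of all tested genes rose. The other 3 were Klf15, Fkbp5 and Ddit4. Klf15, a regulator of amino acid and lipid use in muscle, went from 131 ± 9.24 to 186 ± 28.5 CPM (0.50 ± 0.12, 0.00994) without overlap. Fkbp5, a chaperone of the glucocorticoid receptor, changed by 1.44 ± 0.40 (0.0259) but missed the threshold without control replicate 1 (0.0671) or 5 (0.0844). The list count was 3 without either of those replicates, and 1 without the liver-score libraries, where the median was 0.37.

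A metal response element core, searched as TGCACNC and TGCGCNC on both strands, occurred at least once in the window of 4 of the 5 risen glucocorticoid targets (80%), against 40.5% of tested genes. The 5 genes were picked by their rise in these data and include the metal-induced Mt1 and Mt2, so the 80% tests nothing. Mt2 held 4 matches and Mt1 held 3, and 4.02% of tested genes with a window held 3 or more. Here too a match is a string of letters and not evidence of binding. Both windows are shown because the genes lie side by side and rose together, with matches in capitals. Mt2 lies at chr8:94172368-94172667, plus strand, and Mt1 at chr8:94178839-94179138, plus strand.
Mt2: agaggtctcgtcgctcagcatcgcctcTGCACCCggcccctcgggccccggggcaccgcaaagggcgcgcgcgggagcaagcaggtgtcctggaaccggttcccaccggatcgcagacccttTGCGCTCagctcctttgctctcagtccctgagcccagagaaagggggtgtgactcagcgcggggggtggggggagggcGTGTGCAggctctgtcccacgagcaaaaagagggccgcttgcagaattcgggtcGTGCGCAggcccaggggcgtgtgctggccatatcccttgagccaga
Mt1: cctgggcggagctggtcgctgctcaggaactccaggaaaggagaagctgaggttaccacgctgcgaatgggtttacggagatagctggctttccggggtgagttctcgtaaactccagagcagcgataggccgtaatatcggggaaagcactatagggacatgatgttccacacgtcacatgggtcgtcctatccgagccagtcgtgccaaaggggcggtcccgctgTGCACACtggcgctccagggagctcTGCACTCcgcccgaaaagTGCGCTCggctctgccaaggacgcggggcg
Of 17 tested metal and iron genes 2 rose and none fell (median log2 change 0.09), where 4.05% of all tested genes rose. The 2 were Hmox1 and Trf (edgeR adjusted p = 0.0464 and 0.0384). Neither call was left without control replicate 1, 2, 4 or 5 or tumour replicate 2, 9 or 10.

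Among muscle atrophy genes, 2 ubiquitin ligase components rose. Fbxo32, the ligase subunit known as atrogin-1, read 457, 489, 419, 449 and 453 CPM in controls and from 505 to 825 CPM with a median of 701 with a tumour, without overlap (0.59 ± 0.13, edgeR adjusted p = 0.00373). Fbxo31, an F-box protein, went from 248 ± 21.1 to 435 ± 96.3 CPM (0.81 ± 0.15, 0.00101), also without overlap. Both kept their calls under each single omission and without the liver-score libraries. They were the only 2 of 23 tested atrophy genes to pass, and none fell, where 4.05% of all tested genes rose and 3.19% fell. The list count was 4 without tumour replicate 4. Trim63, the ligase MuRF1, was 235 ± 25.3 in controls and 286 ± 53.1 CPM with a tumour and did not pass (0.207). Of 29 autophagy and lysosome genes 5 rose (Bnip3, Map1lc3b, Gabarap, Gabarapl1 and Lamp2), with a median of 0.07. Map1lc3b, the autophagosome protein LC3B, went from 258 ± 12.7 to 331 ± 42.5 CPM without overlap (0.36 ± 0.11, 0.0367). The autophagy count fell to 1 or 2 without any single control, and without tumour replicate 2, 5, 6 or 9, and to 0 without the liver-score libraries, where the median was 0.08. Of 32 proteasome genes, 1 changed: Psmd8, a subunit of the regulatory cap, fell by 0.25 on the log2 scale (0.0133).

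A few chaperones fell. Of 30 heat shock and endoplasmic reticulum genes 5 fell and 1 rose, with a median of -0.11, where 3.19% of all tested genes fell and 4.05% rose. Dnaja1, a co-chaperone of Hsp70, was at 41.1, 41.4, 51.5, 44.3 and 63.2 CPM in controls and from 28.1 to 38.0 CPM with a median of 34.2 in tumour-bearing hearts, all below the controls (-0.52 ± 0.10, edgeR adjusted p = 0.00264). Hsph1, Dnajb1 and Hspb6 fell too (-0.57, -0.65 and -0.33), calls lost in 5, 8 and 2 of 15 single omissions, those of Hspb6 being control replicates 2 (0.0958) and 4 (0.0765). The fifth fall, Hspa1b (-1.16 ± 0.32, 0.0259), has a near-identical neighbour and missed the threshold without control replicate 2 (0.053) or 5 (0.135). The number of falls was 1 and 2 without control replicates 2 and 5, and 3 without tumour replicate 2 or 6.

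Some lipid-handling genes rose, among them lipases, and no respiratory chain gene was called. Of 44 fatty acid genes 8 rose and 1 fell (median 0.20), where 4.05% of all tested genes rose and 3.19% fell. Lipe, hormone-sensitive lipase, stood at 113, 69.2, 87.7, 105 and 61.2 CPM in controls and from 98.98 to 186 CPM with a median of 166 with a tumour (0.83 ± 0.17, edgeR adjusted p = 0.00276). Lpl, the lipase that releases fatty acids from plasma lipoproteins, went from 7007 ± 583 to 10010 ± 1834 CPM (0.51 ± 0.12, 0.00697). The triglyceride lipase Pnpla2 rose by 0.60, the uncoupling protein Ucp2 by 0.73 and the fatty acid transporter Slc27a1 by 0.58. The single fall was Ppargc1b, a coactivator of mitochondrial genes (-0.48). All 6 tested adipocyte markers had positive changes (median 2.15) and none was called; their summed level had a median of 20.3 CPM in controls and 26.3 with a tumour, and without the liver-score libraries, among them tumour replicate 9, the median change was -1.58. The part of fat tissue in the lipase values was not tested. The list count was 3 without control replicate 5, 4 without control replicate 1 or 2 or tumour replicate 2 or 6, and 5 without control replicate 3 or tumour replicate 3, 5 or 8. Lipe, Lpl and Ucp2 passed in each of those fits. Slc27a1 was lost without control replicate 5 (0.0648), and Pnpla2 and Ppargc1b in 6 and 12 of 15 single omissions. Without the liver-score libraries 3 list members were higher, Lipe and Lpl among them, with a median of 0.18. Ucp2, Slc27a1 and Pnpla2 did not pass there (log2 changes 0.55, 0.53 and 0.49, adjusted p = 0.129, 0.0746 and 0.122).

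Single transcripts of sugar and amino acid metabolism changed. Pfkfb3, which makes the activator of glycolysis fructose 2,6-bisphosphate, read 30.7, 22.3, 18.3, 22.8 and 19.4 CPM in controls and from 28.1 to 92.8 CPM with a median of 44.9 with a tumour (1.15 ± 0.25, edgeR adjusted p = 0.00433). It and the glucose transporter Slc2a1 were the 2 rises among 27 glycolysis genes, and the lactate carrier Slc16a1 was the 1 fall, with the calls of Slc2a1 and Slc16a1 lost in 10 of 15 single omissions each. Over all tested genes 4.05% rose and 3.19% fell. Acadsb, a dehydrogenase of branched-chain amino acid breakdown, went from 250.1 ± 13.4 to 319 ± 29.01 CPM without overlap (0.35 ± 0.07, 0.00207), and Aldh6a1 of the same pathway rose by 0.30 (0.0159). None of 54 oxidative phosphorylation genes, 25 of the citric acid cycle and pyruvate list, 46 ribosomal protein genes or 37 mitochondrial ribosome genes passed in either direction, with medians of -0.05, -0.06, 0.05 and -0.11. Nampt, the rate-limiting enzyme of NAD salvage and a clock output, rose from 246 ± 24.9 to 345 ± 56.6 CPM (0.49 ± 0.10, 0.00266). None of 9 clock activators passed. Dbp, a clock-driven transcription factor, was 341 ± 23.4 in controls and 258 ± 87.01 CPM with a tumour (0.41).

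The muscle genes that changed were lower. Of 25 sarcomere genes 3 fell and none rose (median -0.13), where 3.19% of all tested genes fell and 4.05% rose. Mybpc3, cardiac myosin-binding protein C, stood at 2747, 3000, 2523, 3381 and 2887 CPM in controls and from 1732 to 2749 CPM with a median of 2125 with a tumour (-0.43 ± 0.10, edgeR adjusted p = 0.00719). Actc1, cardiac actin, fell from 3743 ± 339.9 to 2385 ± 566 CPM without overlap (-0.65 ± 0.15, 0.00787). Acta1, skeletal actin, which is close in sequence to Actc1, fell by 1.29 on the log2 scale (0.00481), with control replicate 3 at 641 CPM inside the tumour-bearing range. Tropomyosin, Tpm1, was the third sarcomere gene (-0.36, 0.0391), lost in 7 of 15 single omissions. The sarcomere count was 5 without control replicate 3 or tumour replicate 4. The main myosin heavy chain Myh6 was level, at 25330 ± 2428 and 25290 ± 3084 CPM (-0.00 ± 0.10). Among 34 genes of calcium handling and ion channels, Camk2d, Casq2 and Jph2 fell and none rose (3 of 34). Camk2d, the cardiac calmodulin-dependent kinase, went from 421 ± 44.97 to 316 ± 49.1 CPM (-0.42 ± 0.10, 0.0121). It alone of the 3 was left without control replicate 1, 4 or 5. Casq1, the skeletal form of the calcium store protein calsequestrin, was at 38.4, 58.8, 32.96, 88.1 and 41.8 CPM in controls and from 10.8 to 29.96 CPM with a median of 17.1 in tumour-bearing hearts, without overlap (-1.44 ± 0.24, 0.000379). Without the liver-score libraries Mybpc3 kept its call, whereas Actc1, Acta1, Camk2d and Casq1 lost theirs (adjusted p = 0.0511, 0.120, 0.254 and 0.0516). Their log2 changes there were -0.57, -1.04, -0.29 and -1.11.

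**Figure D3:**
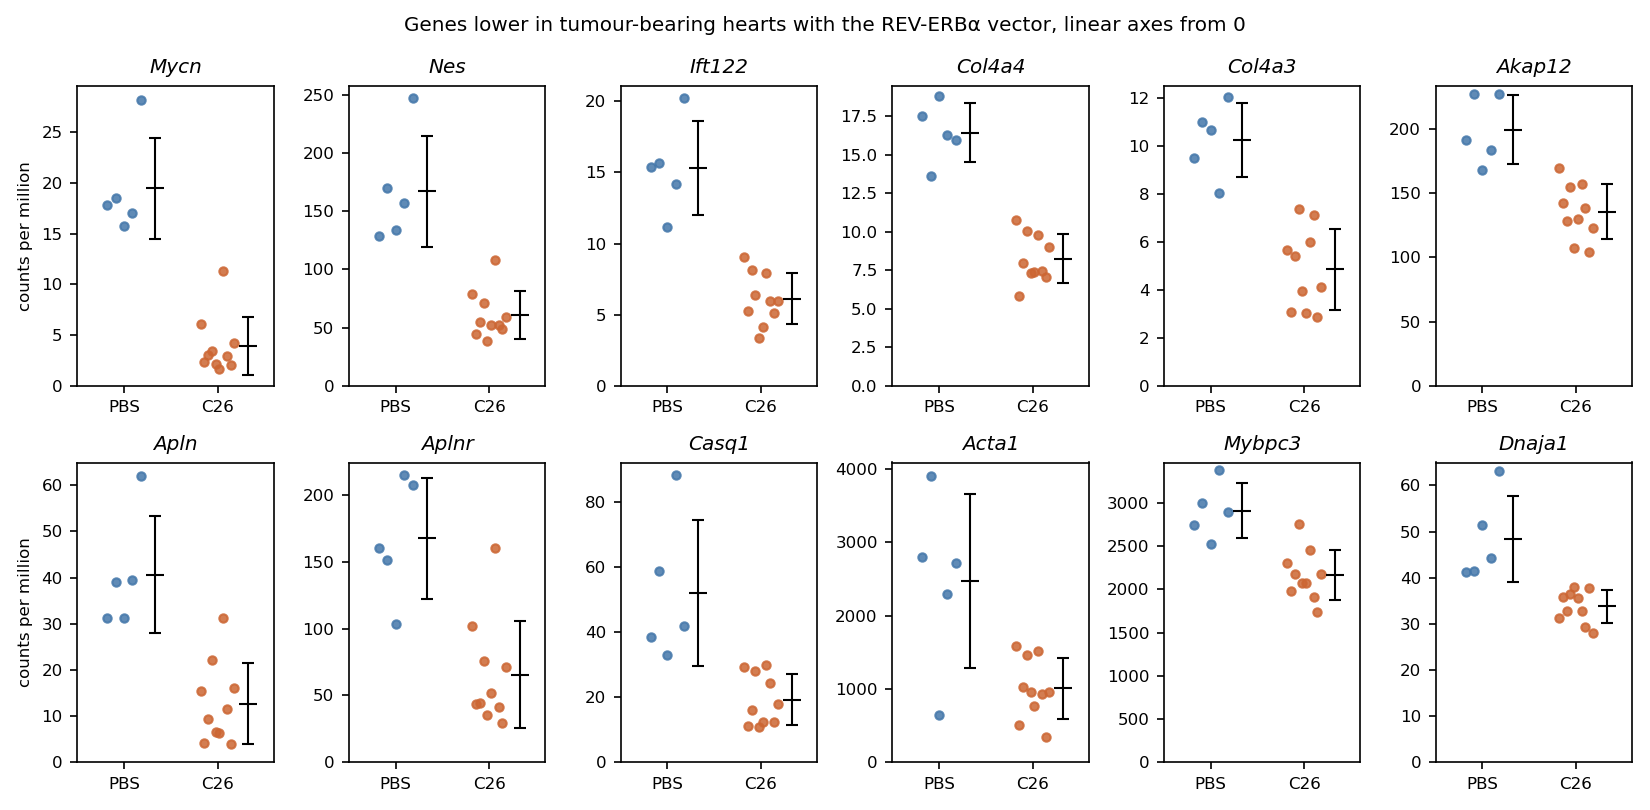
CPM (vertical axes, linear from 0) of 12 genes that fell, in 5 controls (blue) and 10 tumour-bearing hearts (orange), with mean and SD beside the points. For Mycn, Nes, Ift122, Col4a4, Col4a3, Apln, Casq1 and Dnaja1 every tumour-bearing heart lies below every control, and the groups overlap for Akap12, Aplnr, Acta1 and Mybpc3.

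More vascular signalling genes fell than rose. Of 28 tested members of the apelin and vascular ligand list 7 fell and 2 rose, with a median of -0.15, where 3.19% of all tested genes fell and 4.05% rose. Apln, the ligand of the apelin receptor that acts on heart contraction and vessel tone, read 31.3, 39.1, 31.3, 39.5 and 62.03 CPM in controls and from 4.002 to 31.2 CPM with a median of 10.5 with a tumour, without overlap (-1.67 ± 0.38, edgeR adjusted p = 0.00751). Aplnr, its receptor, fell from 167 ± 45.4 to 65.6 ± 39.9 CPM (-1.34 ± 0.32, 0.00975), with the highest tumour-bearing heart inside the control range. Kdr, the main endothelial VEGF receptor, changed by -0.56 ± 0.11 (0.0029), its coreceptor Nrp2 by -0.57 ± 0.10 (0.000431), and Pdgfb, which recruits pericytes, by -0.52 ± 0.12 (0.00568). Angpt2 and Edn1, encoding angiopoietin 2 and endothelin 1, were the other two falls. Angpt2 missed the threshold without control replicate 2, 3 or 5 (0.0551, 0.081 and 0.0805) and Edn1 in 6 of 15 single omissions. Placental growth factor, Pgf, rose from 11.8 ± 2.25 to 20.5 ± 3.21 CPM without overlap (0.79 ± 0.17, 0.00394), as did the VEGF receptor Flt1 (0.36, 0.0163; with overlap), and Flt1 missed the threshold without control replicate 3 (0.0534). Endothelial markers summed to 1860 to 2189 CPM in controls and 1814 to 2235 with a tumour, and Kdr was the 1 of 12 to change. None of the 7 falls passed without the liver-score libraries (Apln adjusted p = 0.142, log2 change -1.29), whereas Pgf did.

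A pair of scaffolds of adrenergic signalling fell. Over all tested genes 3.19% fell and 4.05% rose. Of 25 list members 4 fell and 2 rose, the adenylyl cyclase Adcy6 and the G protein regulator Rgs2. Neither rise was left without control replicate 1, 2, 4 or 5, and 1 of them without tumour replicate 2, 3, 5, 6, 8, 9 or 10. Akap12, an anchor of protein kinase A, went from 199 ± 26.7 to 135 ± 21.4 CPM (-0.56 ± 0.10, edgeR adjusted p = 0.000583), and Akap5, another such anchor, from 16.2 ± 3.92 to 5.69 ± 3.596 (-1.47 ± 0.28, 0.00126). Without the liver-score libraries Akap12 kept its call and Akap5 did not (log2 change -1.20, adjusted p = 0.0934). The phosphodiesterase Pde4b and the noradrenaline-making enzyme Dbh were the other falls, and both lost their calls without control replicate 2, where 2 falls were left; Pde4b was also lost without control replicate 5 (0.0852), and Dbh in 7 of 15 single omissions in all. In the activin, TGF-β and BMP list of 27, Bmp4 fell from 26.2 ± 3.46 to 17.3 ± 3.46 CPM without overlap (-0.58 ± 0.14, 0.0126), the receptor Tgfbr2 rose by 0.59 (0.00575) and the activin subunit Inhbb by 0.85 (0.0159). Inhbb missed the threshold without control replicate 2 (0.0512) or 5 (0.0761). The fourth call in that list, the fall of Tgfb3 (0.0432), was lost in 9 of the 15 single omissions.

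The growth regulator Mycn and 4 cell cycle genes fell. Mycn, a MYC family transcription factor that drives cell growth (chr12:12936093-12941836, mm10), fell furthest of all called genes with a mean of at least 5 CPM. It read 17.8, 18.5, 15.8, 17.1 and 28.2 CPM in controls and from 1.703 to 11.3 CPM with a median of 3.0 in tumour-bearing hearts, a band that does not reach the controls. The log2 change was -2.28 ± 0.27 (edgeR adjusted p = 3.04e-06), and it held in every alternative fit. Its relative Myc was 5.90 ± 2.95 in controls and 11.7 ± 4.804 CPM with a tumour, at the threshold (0.0496), and was lost in 9 of 15 single omissions. Of 19 cell cycle genes 4 fell and none rose, with a median of -0.56, the lowest of the pathway lists, where 3.19% of all tested genes fell. Top2a, the topoisomerase of dividing cells, went from 2.67 ± 0.766 to 0.689 ± 0.405 CPM without overlap (-1.93 ± 0.43, 0.00616), and the spindle protein Prc1 from 1.89 ± 0.769 to 0.533 ± 0.256 (-1.76 ± 0.35, 0.00225). Mki67, the marker of dividing cells, fell by 1.42 on the log2 scale (0.015) but missed the threshold without control replicate 5 (0.063), where 2 of the 4 falls were left. Without the liver-score libraries 1 fall was left, Prc1 (adjusted p = 0.0362), and the list median was -0.51. Top2a and Mki67 did not pass there (log2 changes -1.97 and -1.51, adjusted p = 0.0832 and 0.0938). Levels of Top2a and Prc1 were near or below 1 CPM with a tumour, a handful of counts per library. Nes, nestin, an intermediate filament of young muscle and vascular cells, stood at 129, 169.8, 134, 157 and 247 CPM in controls and from 38.5 to 108 CPM with a median of 53.6 with a tumour, without overlap (-1.46 ± 0.17, 3.04e-06).

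The extracellular matrix list was split. Of 37 members 8 fell and 4 rose, with a median of -0.22, where 3.19% of all tested genes fell and 4.05% rose. Col4a4, a chain of basement membrane collagen, read 17.5, 13.6, 18.8, 16.3 and 15.9 CPM in controls and from 5.81 to 10.8 CPM with a median of 7.699 with a tumour, without overlap (-0.99 ± 0.12, edgeR adjusted p = 3.94e-06). Col4a3, the neighbouring gene, fell from 10.3 ± 1.53 to 4.87 ± 1.68 CPM (-1.08 ± 0.21, 0.00134), and Col8a1 and Col6a2 changed by -0.77 ± 0.14 (0.00108) and -0.69 ± 0.14 (0.00374). Col6a1 and the matrix protein Sparc also fell (-0.46 and -0.45), as did Col4a1, lost without control replicate 2, 4 or 5 (0.0752, 0.101 and 0.101), and Postn, lost in 11 of 15 single omissions. Elastin (Eln, 0.81), decorin (Dcn, 0.38) and the matrix proteases Mmp2 (0.51) and Mmp3 (2.07) rose, of which Mmp3 held in every single omission, and the count was 1 without control replicate 2 or 5 and 2 without control replicate 4. Pi16, a fibroblast marker, rose from 87.6 ± 10.7 to 161 ± 35.5 CPM (0.88 ± 0.15, 0.000414). Without the liver-score libraries 2 falls were left, Col4a3 (adjusted p = 0.0239) and Col4a4 (0.00255), with a list median of -0.33.

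Several of the largest changes belonged to none of the lists. Apod, a small lipid carrier, read 9.52, 4.93, 8.59, 4.79 and 4.86 CPM in controls and from 12.3 to 71.9 CPM with a median of 31.5 with a tumour, without overlap (2.37 ± 0.44, edgeR adjusted p = 0.00121). Srpx, a secreted sushi-repeat protein, rose by 2.22 ± 0.36 (0.000302), the steroid sulfate carrier Slc10a6 by 2.13 ± 0.48 (0.00664) and the kinase Map3k6 by 1.74 ± 0.41 (0.00914). Ttyh1, a membrane protein, and Tcf23, a basic helix-loop-helix factor, changed by 2.07 and 1.73; Ttyh1 missed the threshold without control replicate 4 (0.0588) and Tcf23 without control replicate 5 (0.0643). Among the falls, Rtn4r, the Nogo receptor, went from 63.8, 56.5, 62.2, 69.3 and 82.4 CPM in controls to from 5.55 to 52.1 CPM with a median of 15.8, all below the controls (-1.52 ± 0.37, 0.0121). Ift122, a part of the cilium transport machinery, fell from 15.3 ± 3.27 to 6.13 ± 1.801 CPM, also without overlap (-1.31 ± 0.17, 1.37e-05). Nrep and Sez6l2 fell by 1.26 and 1.30 on the log2 scale. Without the liver-score libraries Apod, Srpx, Rtn4r and Ift122 kept their calls, and Slc10a6, Map3k6, Nrep and Sez6l2 did not, with log2 changes there of 1.62, 1.63, -1.15 and -1.04 (adjusted p = 0.124, 0.0508, 0.0722 and 0.167).

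**Figure D4:**
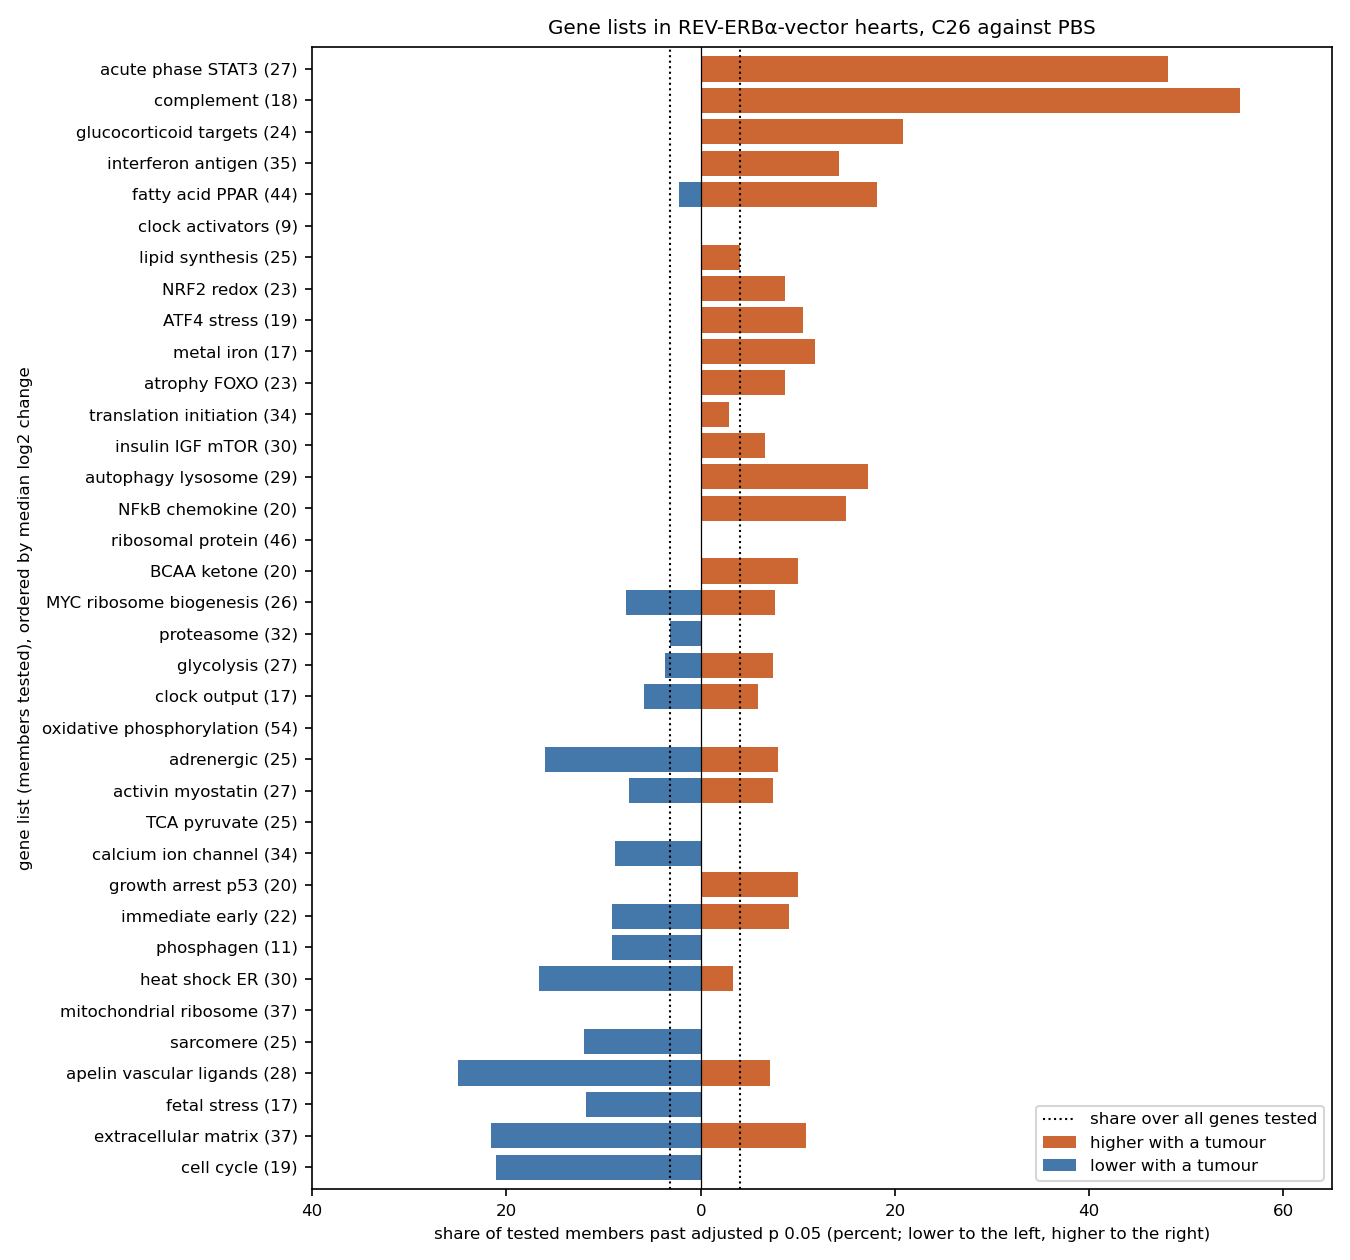
Share of the tested members of 36 gene lists (vertical axis, members tested in brackets) that rose (orange, right) or fell (blue, left) in tumour-bearing hearts, in percent. Dotted lines give the shares over all genes tested, 4.05% and 3.19%. Complement and acute phase genes reach furthest to the right and the apelin and vascular list furthest to the left, while 5 lists have no called member.

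The 10 tumour-bearing hearts did not respond evenly. Of the 71 named genes that rose, tumour replicate 7 had the lowest value of the 10 in 38 and tumour replicate 4 in 19. Of the 45 named falls, replicate 7 had the highest value in 20. Tumour replicates 2 and 5 had the highest value in 22 and 18 of the 71 rises. Without replicate 7 the comparison called 1201 genes. The fit without the liver-score libraries kept replicate 7 and left out replicates 2, 4 and 5. The labels give no tumour size or weight loss of single mice.

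With the GFP vector the same fit called 3642 genes (28.2%) between 10 C26_GFP and 4 PBS_GFP hearts. The 2 tumour effects share no library. Of the 935 genes called here, 744 (79.6%) were also called there, which is 20.4% of the GFP calls, and all 744 had the same sign. Across the 12928 tested genes the log2 changes had a Pearson correlation of 0.54 and a Spearman correlation of 0.63; genes are not independent replicates. Liver transcripts differed between the 2 comparisons. The 10 tested hepatocyte markers had a median log2 change of 4.31 here and -1.105 with GFP, where 2 were called lower. Their difference had a median of 5.24, with 7 members at an unadjusted edgeR p under 0.05 and none passing. The hepatocyte score was 3.3 in PBS_GFP replicate 2. The part of liver transcripts in the difference between vectors was not tested. No gene passed the test of the difference between the 2 effects in edgeR (0 of 12928, 0%). An unadjusted p under 0.05 was reached by 1357, the smallest adjusted p was 0.278, and DESeq2 called 15 and limma voom 4. In simulated data of this size the edgeR test of the difference recovered 61% of 1.5-fold and 71% of 2-fold differences among 200 of 12928 genes. Those 200 were drawn from genes with a mean of at least 1 CPM. Each gene varied by itself there, with no liver, atrial or fat content shared across genes. The recovered shares therefore do not measure what the test could miss in these hearts.

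For the leading genes the values stand as follows. Serpina3n changed by 5.02 ± 0.53 with GFP against 3.73 ± 0.48 with REV-ERBα, a difference of -1.29 ± 0.67 (edgeR adjusted p = 0.496). Apln changed by -3.23 ± 0.42 with GFP against -1.67 ± 0.38 (1.57 ± 0.59, 0.37), and Rtn4r by -2.83 ± 0.39 against -1.52 ± 0.37 (1.31 ± 0.56, 0.432). For Osmr the difference was -0.29 ± 0.20 and for Mycn 0.42 ± 0.40, both within about 1.5 standard errors of 0. Gbp4, which passed with REV-ERBα, changed by -0.09 ± 0.29 with GFP (1.13 ± 0.41, 0.365), and Egr3, an immediate early gene that fell by 1.62 on the log2 scale here, by -0.64 ± 0.38 (-0.97 ± 0.55, 0.526). The smallest p-values of the difference belonged to Dlg5, Faap20, Cd63, Emilin1 and Cirh1a. Cd63, a lysosomal membrane protein, changed by 0.18 ± 0.10 here and by 0.85 ± 0.11 with GFP (-0.67 ± 0.14, 0.278), and Emilin1, an elastic fibre protein, by 0.29 ± 0.08 and 0.83 ± 0.09 (-0.54 ± 0.12, 0.301). Over all 12928 tested genes 1806 were called lower with GFP and 412 here. Of 54 oxidative phosphorylation genes 25 were called lower with GFP and none here, with medians of -0.20 and -0.05. The difference had a median of 0.15 over these members, with 12 at an unadjusted p under 0.05, and no member passed the test of the difference. Higher calls over all 12928 tested genes numbered 1836 with GFP and 523 here. The acute phase list had a median of 1.10 with 18 of 27 called higher with GFP, against 1.13 with 13 here. For the complement list these were 0.60 with 11 of 18, against 0.57 with 10. The difference between vectors had a median of -0.29 and -0.12 over the members of these 2 lists. An unadjusted edgeR p under 0.05 was reached by 6 and 3 members, against 1357 of all 12928 tested genes, and none passed.

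**Figure D5:**
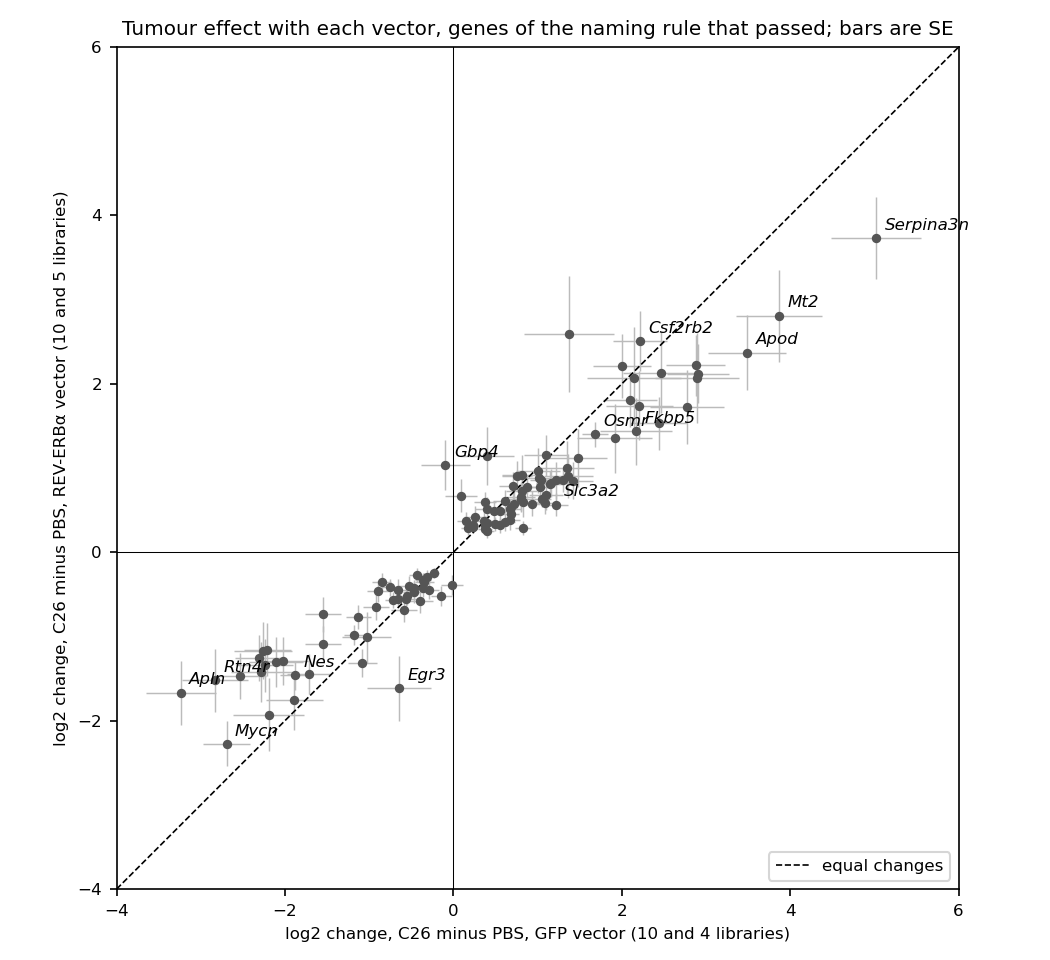
Log2 change of tumour-bearing against tumour-free hearts with the GFP vector (horizontal axis) and with the REV-ERBα vector (vertical axis) for the 116 genes of the naming rule that passed with REV-ERBα, with standard errors as bars. The dashed line marks equal changes. Serpina3n lies at 5.02 and 3.73, Apln at -3.23 and -1.67, and no gene passed the edgeR test of the difference.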

How the data were processed

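Hearts of 29 mice were profiled by RNA sequencing (stranded kit without poly-A selection, per the labels' protocols). The authors deposited raw counts per gene, aligned with STAR 2.4.2a to mm10, per the submitters' processing notes, which also name DESeq2 1.24.0. No source used here gives the strand setting, so overlapping genes cannot be told apart. The deposited table also gives each gene's length, a value not used for any test. 1 per-sample column matched no label and was not used. Counts were fitted with edgeR 4.0.16 (R 4.3.3): genes with at least 10 counts in enough libraries and 15 in all, TMM scaling, 1 mean per group over all 29 libraries, glmQLFit and glmQLFTest, Benjamini-Hochberg adjustment over 12928 genes, threshold 0.05. Errors on log2 changes are the change divided by the root of F. Each library had its own animal, so p-values measure spread between animals. No 2 libraries were copies of each other: over 406 pairs the counts differed by more than sampling noise (chi-square over its degrees of freedom at least 2.382).

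Same-numbered libraries were not paired by the labels, and their deviations correlated at -0.015 to -0.201. The rule for naming genes took Nr1d1, the top 12 in each direction by log2 change at 5 CPM or more, up to 4 members of each of 54 lists with the smallest p, and the 5 smallest p of the difference; further list members were named after their values were seen. The members and lists were chosen with earlier results of these data known. On simulated data the fit recovered 78% of 1.5-fold and 86% of 2-fold changes in the C26_REV-ERBa contrast, with 12 false calls among 12928 genes. The changed genes were drawn from those with a mean of at least 1 CPM, and each gene varied by itself. DESeq2 1.42.0 and limma 3.58.1 served as alternatives. Promoter windows came from RefSeq (GRCm38.p6). Over all tested genes 4.05% were higher and 3.19% lower. Of 54 lists, 1172 of 1179 entries were in the table and 1083 were tested. Those not described elsewhere had these counts (in brackets the range over the 15 single omissions of a library, where it varied): ATF4 targets 2 (1 to 3) higher and 0 (0 to 1) lower of 19, NRF2 targets 2 (1 to 5) higher and 0 lower of 23, immediate early genes 2 (0 to 2) higher and 2 (1 to 2) lower of 22, lipid synthesis 1 (0 to 2) higher and 0 (0 to 1) lower of 25, insulin, IGF and mTOR 2 (0 to 3) higher and 0 (0 to 1) lower of 30, growth arrest 2 (0 to 2) higher and 0 (0 to 1) lower of 20, MYC targets 2 (0 to 3) higher and 2 (1 to 2) lower of 26, translation initiation 1 (1 to 3) higher and 0 lower of 34, phosphagen 0 higher and 1 (0 to 1) lower of 11, fetal genes 0 higher and 2 (1 to 4) lower of 17, clock outputs 1 higher and 1 (0 to 2) lower of 17, fibroblast 2 (1 to 3) higher and 0 (0 to 1) lower of 11, pericyte and smooth muscle 0 higher and 1 (0 to 2) lower of 13, neutrophil 1 (0 to 2) higher and 0 lower of 3, T and NK cell 0 higher and 0 lower of 1, B cell 0 higher and 0 lower of 0, erythroid 0 (0 to 1) higher and 0 lower of 3, platelet 0 higher and 0 lower of 7, skeletal muscle 0 higher and 0 lower of 1, Schwann cell 0 higher and 1 (0 to 1) lower of 7, epicardial 0 (0 to 1) higher and 0 lower of 7, lymphatic 1 (0 to 1) higher and 0 lower of 5, atrial 0 higher and 0 lower of 10 and colon epithelial 0 higher and 0 lower of 1. No rise was left among immediate early genes without control replicate 2 or 5, insulin, IGF and mTOR without control replicate 4 or 5, growth arrest without control replicate 1, 2 or 3, and MYC targets without control replicate 2, 3 or 5 or tumour replicate 2, 3, 5 or 9.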

Additional observations from a re-analysis of the deposited data

Results flagged for a closer look

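Among 242 gene and group pairs, single libraries stood apart from the rest of their group in 12. The rule flags about 1 in 20 pairs by chance. The pairs share the same 15 libraries and are not independent, so that rate does not account for the flags. Control replicate 4 and tumour replicate 9 recur among them. Cirh1a was lowest among tumour-bearing hearts in replicate 9, at 6.24 CPM against 8.16 in the next library. Col6a2 was highest among controls in replicate 2, at 176 CPM against 144 in the next library. Col8a1 was lowest among tumour-bearing hearts in replicate 9, at 37.3 CPM against 57.3 in the next library. Ddit4 was lowest among controls in replicate 4, at 29.3 CPM against 48.2 in the next library. Hspa1b was highest among tumour-bearing hearts in replicate 9, at 11.4 CPM against 3.35 in the next library. Lpl was lowest among controls in replicate 3, at 6000 CPM against 7070 in the next library. Mycn was highest among controls in replicate 5, at 28.2 CPM against 18.5 in the next library. Nr1d1 was highest among controls in replicate 4, at 259 CPM against 191 in the next library. Nrep was highest among controls in replicate 4, at 86.6 CPM against 70.6 in the next library. Odc1 was highest among controls in replicate 5, at 28.0 CPM against 22.7 in the next library. Pi16 was lowest among tumour-bearing hearts in replicate 7, at 80.0 CPM against 135 in the next library. Pi16 was lowest among controls in replicate 4, at 69.0 CPM against 88.7 in the next library. No cause was tested for these values.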

How the results depend on the processing

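Counts of called genes (all, higher, lower) were within 1.5 times the reported ones under other scalings, DESeq2, voom, other low-count filters, only the compared groups, robust fitting, an atrial covariate, thinning, and removal of haemoglobin and ribosomal RNA genes. At an adjusted p under 0.1 they were 1593, 835 and 758. With the replicate block they were 450, 235 and 215; the labels give no pairing, and 0 of 5 controls correlated best with their own number. With the hepatocyte score as a covariate, an alternative chosen after seeing the data, they were 406, 243 and 163, and without the 9 libraries with a score above 1, also chosen after seeing the data, 152, 100 and 52; fewer libraries entered that fit. Leaving out 1 library gave 476 to 1201, 264 to 641 and 212 to 560. The difference between vectors called 15 genes with DESeq2 and 4 with voom. GFP calls fell from 3642 to 1972 without the 5 deepest libraries. These were PBS_GFP replicates 1 and 2, of only 4 PBS_GFP libraries, and C26_GFP replicates 4, 5 and 6. With all libraries thinned to the smallest total, GFP calls were 2969. For the 154 genes looked at singly, of which 149 were called, the alternatives other than single omissions kept side and call 2226 times, lost the call 371 times and gained it 3 times; the log2 changes of Nr1d1 (0.0447) and Cd63 (-0.0153), neither called, turned sign without the 9 libraries. The cause was not tested where none is named. Depth limits genes near 1 CPM, such as Top2a and Prc1, to a few counts a library.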
